A study of Mus musculus with 4 samples.

Results

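The glutamatergic synapse genes described here are Slc17a6, Grm8, Grik2, Grin1 and Dlg2, 5 of the 1132 gene symbols that the authors listed as changed after transfection of an shRNA directed at Mrhl, a long non-coding RNA of the nucleus. They were chosen by symbol from the authors' lists with their deposited fold-change values known, so that being listed, the direction and the size of that value are given as a description without a test. RNA was sequenced from E14tg2a cells, an established mouse embryonic stem cell line of strain 129/Ola, in 2 groups of 2 libraries. The first group received shRNA 4 against Mrhl and the second a scrambled shRNA, both for 48 hours by transient transfection, and both groups were grown on gelatine in serum medium. A further label field names a lentivirus, which the transfection protocol does not mention, and nothing says whether the libraries of a group came from separate cultures.

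At a glutamatergic synapse, vesicular transporters load glutamate into synaptic vesicles, and the released transmitter acts on ion-channel receptors of the AMPA, kainate and NMDA families and on G-protein-coupled metabotropic receptors. Scaffold proteins of the membrane-associated guanylate kinase (MAGUK) family anchor the receptors on the postsynaptic side. Such genes are known for their roles in neurons, and embryonic stem cells form no synapses, so the values below are transcript differences in cells labelled as embryonic stem cells and not a measure of synapses.

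In the authors' deposited tables the presynaptic transporter and the metabotropic receptor were lower in sh-Mrhl, and both ionotropic receptor subunits and the scaffold were higher. Slc17a6, which encodes the vesicular glutamate transporter VGLUT2, was at -3.53 in the authors' deposited table. Grm8, which encodes mGluR8, a group III metabotropic receptor that acts as a presynaptic autoreceptor, was at -3.49 in the authors' deposited table. Grik2, which encodes the kainate receptor subunit GluK2, was at 1.73, and Grin1, which encodes the obligatory NMDA receptor subunit GluN1, was at 1.65 in the authors' deposited table. Dlg2, which encodes the postsynaptic MAGUK scaffold PSD-93, had the value 3.24 in the authors' deposited table. The protein-coding background, beside which these counts stand, is that 1.57% of annotated protein-coding symbols were listed as lower and 0.930% as higher. Since listing chose the 5 genes, nothing is read from the comparison with that background.

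Each value is 1 signed number per gene for sh-Mrhl against scrambled, with a minus sign for genes listed as lower. Whether it is a log2 ratio or a signed linear fold is not stated. Read as log2, the value of Slc17a6 would be an 11.6-fold decrease and that of Grin1 a 3.13-fold increase, whereas read as linear folds they would be 3.53-fold and 1.65-fold. The tables analysed held no value per library, count, expression level or p-value, so the depth is unknown, no replicate error can be given, no difference could be set against the spread between libraries, and how many reads a value rests on is unknown. The level of Mrhl could not be checked either, since it is not a listed symbol.

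Up to 250 bases before the RefSeq start of each gene are shown to set the promoters of the pair listed as lower against those of the trio listed as higher. The sequences are from RefSeq on GRCm38.p6, which is the mm10 assembly, and all 5 genes matched by symbol. Each is the most upstream RefSeq start of its gene, written 5′ to 3′ on the gene's strand, ends before the first base that GENCODE M21 annotates as exon of that gene, and has its CG dinucleotides in capitals. The window of Slc17a6 is chr7:51621580-51621829 on the plus strand, that of Grm8 is chr6:28135179-28135396 on the minus strand, that of Grik2 is chr10:49788767-49789004 on the minus strand, that of Grin1 is chr2:25319188-25319437 on the minus strand, and that of Dlg2 is chr7:91090536-91090705 on the plus strand.
Slc17a6: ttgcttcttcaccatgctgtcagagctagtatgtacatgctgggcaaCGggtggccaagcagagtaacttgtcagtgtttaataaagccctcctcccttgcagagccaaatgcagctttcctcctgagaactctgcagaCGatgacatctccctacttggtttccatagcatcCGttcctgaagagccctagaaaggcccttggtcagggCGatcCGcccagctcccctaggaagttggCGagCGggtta
Grm8: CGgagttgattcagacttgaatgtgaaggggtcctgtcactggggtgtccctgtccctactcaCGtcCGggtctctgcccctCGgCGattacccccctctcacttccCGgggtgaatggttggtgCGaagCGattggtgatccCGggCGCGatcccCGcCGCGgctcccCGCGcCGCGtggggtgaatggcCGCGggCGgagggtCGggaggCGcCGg
Grik2: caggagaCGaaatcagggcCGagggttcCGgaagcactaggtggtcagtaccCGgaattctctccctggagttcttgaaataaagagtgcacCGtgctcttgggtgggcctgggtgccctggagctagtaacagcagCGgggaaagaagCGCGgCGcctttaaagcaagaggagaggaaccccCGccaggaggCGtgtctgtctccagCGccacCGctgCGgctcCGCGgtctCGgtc
Grin1: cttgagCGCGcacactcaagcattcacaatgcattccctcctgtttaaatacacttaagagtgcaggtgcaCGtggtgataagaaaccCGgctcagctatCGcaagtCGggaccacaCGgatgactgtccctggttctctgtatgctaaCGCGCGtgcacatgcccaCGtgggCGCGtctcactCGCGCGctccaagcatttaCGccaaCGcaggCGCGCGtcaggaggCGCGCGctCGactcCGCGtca
Dlg2: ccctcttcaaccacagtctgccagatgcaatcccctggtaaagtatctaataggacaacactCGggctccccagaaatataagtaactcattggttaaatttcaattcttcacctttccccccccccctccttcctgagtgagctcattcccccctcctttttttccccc

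The number of CG dinucleotides before the start differed widely within each direction. Over the full 250 bases, Slc17a6 had 7 CG dinucleotides and Grm8 had 29, and their deposited values differed by -0.041 (Slc17a6 minus Grm8). A relation between CG number and deposited value was not tested. Among the higher genes, Grin1 had 27, Grik2 had 20 and Dlg2 had 3. The sequences shown, cut before annotated exon, hold fewer for some genes, with 24 for Grm8, 17 for Grik2 and 1 for Dlg2. Those of Slc17a6 and Grin1 are shown in full. The median over 16517 protein-coding genes with a RefSeq start was 10. The ratio of observed to expected CG was 1.26 for Grin1, above that of 99.7% of these genes, 0.999 for Grm8 and 0.817 for Grik2, against 0.398 for Slc17a6 and 0.263 for Dlg2. The median number of CG dinucleotides was 6 in the 241 listed lower genes with a start in the table and 5 in the 154 listed higher ones, so Grm8, Grin1, Grik2 and Slc17a6 lay above, and Dlg2 below, the medians of both lists. Slc17a6 and Dlg2 lay below the median of all 16517 genes. RefSeq gives 3 starts for Grm8, 3 for Dlg2 and 2 for Slc17a6. The 2 downstream starts of Grm8 had 8 and 2 CG dinucleotides, those of Dlg2 had 1 and 2, and the downstream start of Slc17a6 had 3. The most upstream RefSeq start of Dlg2 lies 614.1 kb inside the gene as GENCODE M21 annotates it, so the window shown is not that of the annotated transcripts that start farthest upstream. The deposited values are per gene, so they cannot be assigned to a start.

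**Figure D1:**
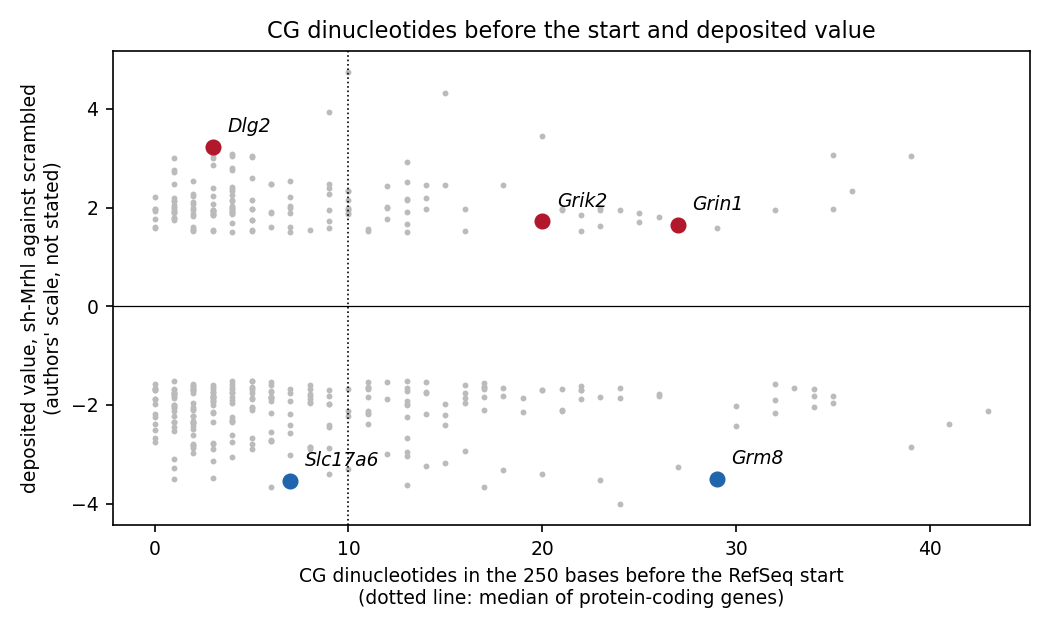
CG dinucleotides in the 250 bases before the most upstream RefSeq start (x axis) against the authors' deposited value for sh-Mrhl against scrambled (y axis) for listed protein-coding genes (grey), with the 5 glutamatergic genes in colour. Slc17a6 and Grm8 sit at nearly the same value with 7 and 29 CG dinucleotides, and Dlg2 is the higher gene with the fewest of the trio, at 3.

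Motif letters were searched on both strands of the same 250 bases. The right half-site of the RE1 element, the site bound by the neuronal gene repressor REST, was searched as GGACAG and was found once each in Grm8 and Grin1, and in 19.1% of the 16517 promoters. The left half-site, TTCAGCACC, was in none of the 5 and in 0.309% of promoters. Grin1 held 2 E-boxes (CACGTG, in 6.81% of promoters) and 2 copies of TGACG, the core of a cAMP response element (20.7% of promoters). A GC box (GGGCGG, in 44.3% of promoters) was in the windows of Slc17a6 and Grm8, once each. This GC box was the only one of the 6 motifs searched that both lower genes held. Since 44.3% of promoters held it, nothing is read from that. Grik2 and Dlg2 held none of the 6 motifs, so no motif was held by all 3 higher genes. TATAAA was in none of the 5 and in 11.9% of promoters. None of the 6 motifs contains another, and a match describes letters and not binding.

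The members differ in where their values stand within the authors' lists, of which 347 protein-coding genes were lower and 206 higher. By absolute value, Slc17a6 ranked 6 and Grm8 ranked 9 of the 347 protein-coding genes listed as lower. Among all 721 lower symbols with 1 direction they ranked 14 and 17. Dlg2 ranked 10 of the 206 protein-coding genes listed as higher. Grik2 and Grin1 ranked 163 and 170 of the 206, and lay 0.078 apart (Grik2 minus Grin1). In the authors' deposited tables, protein-coding genes had a median absolute value of 1.95 where lower and 1.96 where higher, so Slc17a6, Grm8 and Dlg2 lay above and both ionotropic subunits lay below the median of their list. The smallest absolute value in either table was 1.5003, so Grin1 and Grik2 are close to the edge of what was listed. Slc17a6 also had the most negative value of the 13 lower solute carrier genes.

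**Figure D2:**
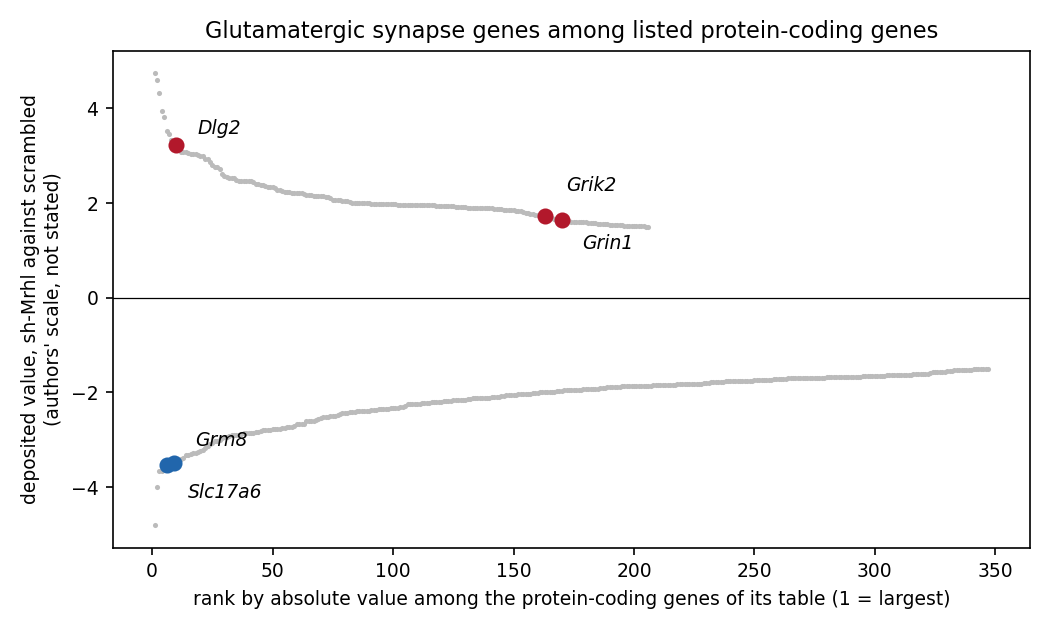
Deposited value for sh-Mrhl against scrambled (y axis, authors' scale) against rank by absolute value within each table (x axis, 1 is the largest) for the listed protein-coding genes (grey), with the 5 glutamatergic genes in colour. Slc17a6, Grm8 and Dlg2 stand at ranks 6, 9 and 10 of their tables, and Grik2 and Grin1 at 163 and 170.

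Most genes of the same families were not listed. The wider pathway was described with 15 lists by role, holding 140 genes in all, of which 5 were listed as lower and 3 as higher. Together these 8 were 5.71% of the 140, a share raised by the 5 genes chosen for being listed. Without those 5 genes, 3 of 135 were listed, or 2.22%, against 2.50% of all annotated protein-coding symbols. Taking out only listed genes lowers the share by construction, so nothing is read from either share. A gene outside the tables may still have changed. The smallest absolute value listed was 1.5003, but the scale, the test and its threshold are unknown.

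On the presynaptic side, Slc17a6 was the 1 listed gene of the 3 vesicular glutamate transporters. The others are Slc17a7 and Slc17a8, which encode VGLUT1 and VGLUT3. Of 30 synaptic vesicle and release genes, only Sv2b was listed, a gene for a synaptic vesicle glycoprotein, at -2.18 in the authors' deposited table. The lists of plasma membrane transporters and of enzymes were not assigned to a side of the synapse. Of 9 plasma membrane glutamate and glutamine transporters, only Slc38a5 was listed, which encodes the glutamine transporter SNAT5, at -1.95 in the authors' deposited table. None of 6 enzymes of glutamate and glutamine metabolism was listed.

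Among receptors, Grm8 was the 1 listed gene of 8 metabotropic receptors, and none of the other group III genes Grm4, Grm6 and Grm7 was in either table. Of 18 ionotropic subunits, 2 were listed, both higher, with Grik2 the only one of 5 kainate subunits and Grin1 the only one of 7 NMDA subunits. NMDA receptors assemble from GluN1 together with GluN2 or GluN3 subunits, and none of the GluN2 or GluN3 genes was listed. None of 4 AMPA subunits, 2 delta subunits or 14 auxiliary subunits was listed.

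On the postsynaptic side, Dlg2 was the 1 listed gene of 4 MAGUK scaffolds, and Dlg4, which encodes PSD-95, was not in either table. None of 19 further postsynaptic density genes, such as those of the Shank and Homer families, was listed. Of 29 synaptic adhesion genes, only Lrfn5 was listed, which encodes the postsynaptic adhesion protein SALM5, at -3.26 in the authors' deposited table. Lrfn5 is thus a postsynaptic gene listed as lower, whereas the postsynaptic scaffold gene Dlg2 was listed as higher. The 5 genes were chosen with their directions known, so no split by side of the synapse is read from them.

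**Figure D3:**
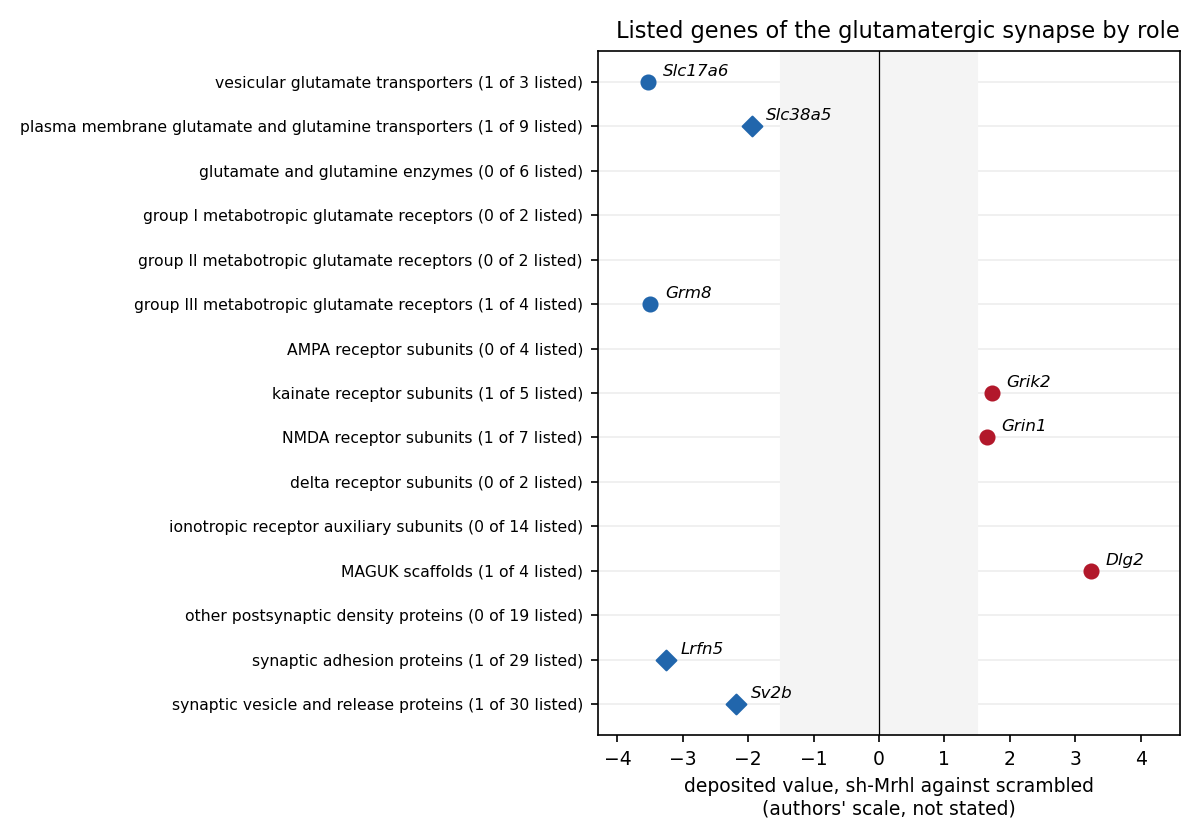
Deposited values for sh-Mrhl against scrambled (x axis, authors' scale) of the listed genes of 15 role lists (y axis, with the number listed of the number in the list). Circles are the 5 chosen genes and diamonds the 3 other listed genes, blue for lower and red for higher, and the grey band marks absolute values under 1.5, where no gene was listed.

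Of 54 markers of pluripotent, neural and fibroblast cells, 2 were listed, or 3.70%, beside 2.50% of all annotated protein-coding symbols, and their part in the values above was not tested. None of 12 postmitotic neuron markers such as Tubb3 and Map2, 6 astrocyte markers or 6 oligodendrocyte markers was in either table. Of 10 neural progenitor markers, the Notch effector gene Hes5 was higher, with a value of 1.96 in the authors' deposited table. None of 12 pluripotency markers was listed. The labelled cell type could not be checked against levels, since no expression level of any gene was among the data. The fibroblast markers, 8 in number, included 1 lower gene, Col3a1, to which the authors' deposited table gave -1.69. In bulk RNA, a change in the number of cells of a type and a change of RNA per cell cannot be told apart.

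Slc17a6, Grm8, Grik2, Grin1 and Dlg2 differ widely in gene span, a property that their choice did not use. In GENCODE M21 on GRCm38, Dlg2 (ENSMUSG00000052572.17) runs on chromosome 7 from 90476672 to 92449247 on the plus strand and spans 1972.6 kb, with 17 annotated transcripts. It was longer than 99.96% of the 21924 annotated protein-coding genes, and only 1 listed protein-coding gene was longer. Grm8 (ENSMUSG00000024211.15), on chromosome 6 from 27275119 to 28135178 on the minus strand, spans 860.1 kb. Grik2 (ENSMUSG00000056073.16), on chromosome 10 from 49094833 to 49788766 on the minus strand, spans 693.9 kb. These are 3 of the 20 listed protein-coding genes with a span over 500 kb, which made up 3.64% of 549 listed genes and 1.05% of all annotated ones. Slc17a6 (ENSMUSG00000030500.6), on chromosome 7 from 51622006 to 51671119 on the plus strand, spans 49.1 kb, and Grin1 (ENSMUSG00000026959.13), on chromosome 2 from 25291181 to 25319187 on the minus strand, spans 28.0 kb. Both were nearer to the medians of 22.6 kb for listed and 17.4 kb for annotated protein-coding genes. One long and one short gene thus made up the lower pair, and 2 long genes and 1 short gene the higher trio.

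**Figure D4:**
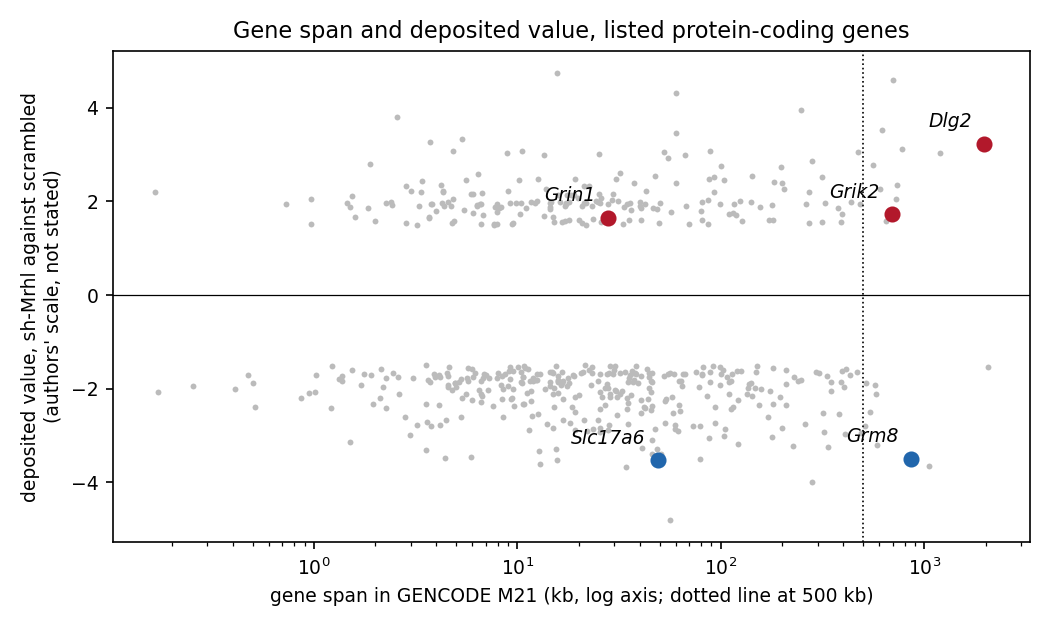
Gene span in kb on a log axis (x axis) against the authors' deposited value for sh-Mrhl against scrambled (y axis) for listed protein-coding genes (grey), with the 5 glutamatergic genes in colour. Dlg2, Grm8 and Grik2 lie right of the dotted line at 500 kb and Slc17a6 and Grin1 left of it, in both directions of change.

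The exonic lengths lay closer together. The union of annotated exons was 16.28 kb for Dlg2, 13.25 kb for Grik2, 9.90 kb for Grm8, 9.70 kb for Grin1 and 5.40 kb for Slc17a6, against a median of 3.50 kb over annotated protein-coding genes. All 5 were thus above that median. The transcript with the most exons had 28 exons in Dlg2, 21 in Grin1, 17 in Grik2, 12 in Slc17a6 and 11 in Grm8.

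Other listed genes that overlapped these loci or lay within 500 kb of them numbered 5. How many would lie near other loci of such length was not computed, so nothing is read from this number. Dlg2 was the 1 gene of the 5 with another listed gene inside it, and it is also the longest of the 5. Gm45183, a transcript model of type TEC, a class still awaiting experimental checks, lies on chromosome 7 from 91304695 to 91306191, on the same strand as Dlg2, 828.0 kb from its annotated start. It was listed as lower at -1.89 in the authors' deposited table, the opposite direction to Dlg2. It shares 0 bases with annotated exons of Dlg2, and the nearest such exon is 143.6 kb away. Of 30 annotated genes that overlap Dlg2, 22 are on its strand, and Gm45183 was the 1 that was listed. None of the 30 is protein-coding, and the share of all such annotated genes that was listed was not computed. Grik2 has 6 overlapping annotated genes, Grm8 has 3, and Slc17a6 and Grin1 have 1 each, none of which was listed.

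**Figure D5:**
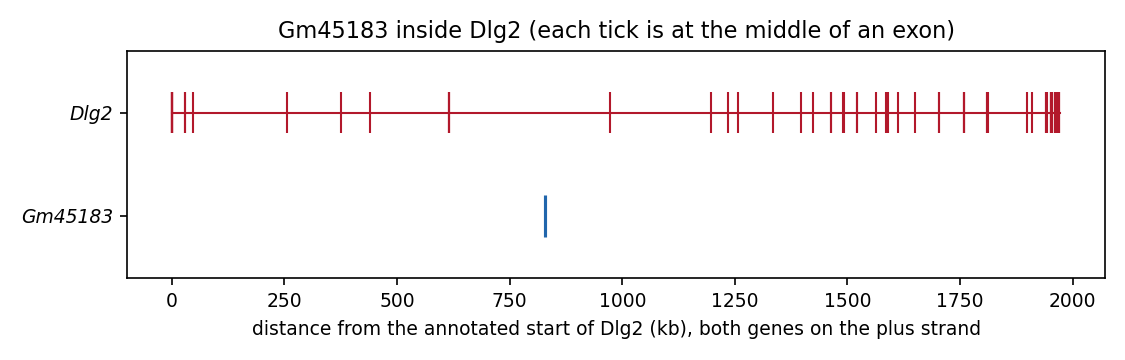
Map of Dlg2 with distance from its annotated start in kb (x axis), where each red tick is an annotated Dlg2 exon and the blue tick below is Gm45183. Gm45183 lies 828.0 kb from the start in an intron, 143.6 kb from the nearest exon.

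Within 500 kb, Grin1 had Cysrt1 at a distance of 48.7 kb, at -1.82, and Ccdc183 at 289.4 kb, at 2.23, in the authors' deposited tables. Slc17a6 had the processed pseudogene Gm9354 at 163.5 kb, at 1.64, and the non-coding gene Gm45235 at 184.5 kb, at 1.72, in the authors' deposited table. Both neighbours of Slc17a6 were therefore listed in the direction opposite to it, and those of Grin1 were split. Grm8 and Grik2 had no listed neighbour within 500 kb or within 1000 kb.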

How the data were processed

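The data were 2 tables of genes that the authors listed as lower or higher in sh-Mrhl against scrambled. Per the submitters' processing notes, TopHat2, Cuffdiff and the mm10 build were used. Tool versions, annotation, test and threshold were not given in the sources used here. The authors deposited 1 signed fold-change value per gene, handled here as a score because its scale is not stated. Symbols were reduced to 1 per table, and 1 symbol in both tables was left out of ranks, leaving 1131. Of 1132 symbols, 1129 were found in GENCODE M21. The planned count and FPKM tests could not be run, and no test was made. The 5 genes and the 15 role lists were chosen with earlier results of these data known, and no list has a test. Genes named with a value were the 5 genes, every listed gene of the role and marker lists, and listed genes overlapping or within 500 kb of one of the 5. Unlisted genes of these lists are named without a value, as examples chosen with the tables known. Percentiles are shares of annotated or listed protein-coding genes with a smaller value. The motif search was tested on simulated data. Protein sequences were not used here. Depth per library is unknown. Tables were handled with pandas 2.3.3 and numpy 2.4.6 in Python 3.11.15, and figures drawn with matplotlib 3.10.9.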

Additional observations from a re-analysis of the deposited data

How the results depend on the processing

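With absolute values of at least 2, the number of higher genes in the 15 role lists was 1 (Dlg2) in place of 3 and that of lower genes 4 in place of 5. With receptors, transporters and MAGUK scaffolds only, 3 genes were lower and 3 higher. Fewer genes enter under both settings by construction. Matching older symbols changed no count, since 0 genes of the lists matched through an older symbol. Counting every row changed no value by construction, since each of the 5 genes had 1 row. Within 1 Mb, 7 listed genes were near the 5 genes, against 5 within 500 kb. Set among listed in place of annotated protein-coding genes, the percentile of span was 69.0 for Slc17a6, 99.1 for Grm8, 98.2 for Grik2, 55.2 for Grin1 and 99.6 for Dlg2, against 76.8, 99.6, 99.4, 63.2 and 99.96 among annotated genes. For exonic length it was 91.4 for Grm8, 95.6 for Grik2, 91.1 for Grin1 and 98.4 for Dlg2, against 92.8, 97.1, 92.4 and 98.6, and 71.6 for Slc17a6 in both. No paired analysis was possible because no value of a single library was among the data. For the same reason, leaving out replicates, pseudocounts, filters on low values and other normalizations were not run. The alignment of proteins was not run. What depth limits cannot be stated.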

Other observations

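Of 35 GABA and glycine synapse genes, 2 were listed as lower and 1 as higher. The 3 genes are 8.57% of the list, beside 2.50% of all annotated protein-coding symbols listed in either direction (1.57% lower and 0.930% higher), and with 3 genes nothing is read from the difference. Gabrr1, which encodes a rho subunit of GABA-A receptors, was at -2.57 and Gabrb2, which encodes a beta subunit of these receptors, at -1.61 in the authors' deposited table. Slc6a11, which encodes a plasma membrane GABA transporter, was at 1.70 in the authors' deposited table. Slc6a11 acts at the plasma membrane and Slc17a6 at vesicles, so these transporters are of unlike kinds. The directions in this list are therefore not set against those of the 5 glutamatergic genes. No difference between the lists was tested. Neither Slc32a1, the vesicular transporter gene of inhibitory transmitters, nor the glutamate decarboxylase genes Gad1 and Gad2 were in either table.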
